A study of Arabidopsis thaliana with 12 samples.

Results

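The genes AZI1 (AT4G12470), EARLI1 (AT4G12480), AT4G12490 and AT4G12500 stand side by side on the minus strand of Arabidopsis chromosome 4, and their transcripts were followed in 12 poly-A RNA libraries of whole seedlings. They were picked by locus identifier, 4 of 33602 genes in the tables, as the tandem block that starts at AZI1, and all 4 passed the filter on low counts that left 22924 genes. The choice was made with results of these libraries known for every comparison, so the levels and fold changes of the 4 genes are a description and carry no p-value. The 4 groups hold 3 libraries each: the stable 35S:HIN1 line at -0.7 MPa (HIN1 stress), the same line at -0.25 MPa (HIN1 control), wild type Col-0 at -0.7 MPa (WT stress) and wild type Col-0 at -0.25 MPa (WT control). Stress was imposed on agar infused with polyethylene glycol. Seedlings grew on unstressed plates for 7 days and were collected 96 h after transfer to stress or fresh control plates, and the light was continuous. HIN1 is the gene AT3G11290, driven by the 35S promoter of cauliflower mosaic virus, which is active in most plant tissues. There is 1 transgenic line, and WT libraries of this set also serve another series on an ahl10 mutant. The comparisons ask how stress acts in each genotype, how the genotypes differ at each water potential, and whether the stress responses differ.

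The 4 genes encode hybrid proline-rich proteins, small secreted proteins with a proline-rich stretch followed by a cysteine-rich domain of the lipid transfer type. AZI1, azelaic acid induced 1, is known for its part in systemic acquired resistance, where it is needed for priming by azelaic acid and for movement of a mobile defence signal. EARLI1, early Arabidopsis aluminum induced 1, is named for its response to aluminum and is also known as a cold- and vernalization-responsive gene.

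The block runs over 13869 bases of chromosome 4, from 7401087 to 7414955 in TAIR10.1, and each gene has 1 exon and no intron. AZI1 lies at 7401087 to 7401951, EARLI1 at 7406065 to 7406994, AT4G12490 at 7409621 to 7410406 and AT4G12500 at 7413990 to 7414955. RefSeq places small loci on the opposite strand inside EARLI1 (AT4G12485, 32 bases) and AT4G12490 (AT4G12495, 282 bases). The kit was stranded, but the sources used here do not say whether the counting was, so sense and antisense reads of these genes cannot be told apart.

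The coding sequences are close copies, which bears on whether reads can be told apart. AZI1 and EARLI1 shared 88.8% of 483 aligned coding bases, AT4G12490 and AT4G12500 shared 92.9% of 534, and the other pairs among the 4 genes lay between 86.5% and 88.2%. The longest identical run in the transcripts was 32 bases between AZI1 and EARLI1 and 87 bases between AT4G12490 and AT4G12500. The authors' share of reads that map to several sites was 0 for all 4 genes in all 12 libraries. The stretch around the longest run common to AZI1 and EARLI1 is shown because it is where their reads are hardest to separate. Capitals mark the 32 identical bases, and the lower-case flanks hold mismatches.
AZI1: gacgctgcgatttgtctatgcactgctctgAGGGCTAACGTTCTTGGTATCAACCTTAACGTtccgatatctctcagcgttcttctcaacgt
EARLI1: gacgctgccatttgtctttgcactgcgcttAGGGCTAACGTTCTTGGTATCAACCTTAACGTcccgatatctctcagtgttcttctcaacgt
The windows cover coding positions 355 to 446 of AZI1 and 376 to 467 of EARLI1, counted from 1 at the start codon in RefSeq's TAIR10.1 annotation.

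The 250 bases before the annotated start are shown for AZI1 and EARLI1 because the WT stress libraries lay below the controls for AZI1 and above them for EARLI1. Capitals mark matches to the motifs searched, on either strand.
AZI1 upstream (minus strand of chr4:7401952-7402201, TAIR10.1): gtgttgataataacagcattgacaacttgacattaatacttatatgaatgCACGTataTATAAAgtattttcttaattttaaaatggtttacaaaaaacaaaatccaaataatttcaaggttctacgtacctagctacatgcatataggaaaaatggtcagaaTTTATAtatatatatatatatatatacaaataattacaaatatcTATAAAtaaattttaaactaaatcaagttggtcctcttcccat
EARLI1 upstream (minus strand of chr4:7406995-7407244, TAIR10.1): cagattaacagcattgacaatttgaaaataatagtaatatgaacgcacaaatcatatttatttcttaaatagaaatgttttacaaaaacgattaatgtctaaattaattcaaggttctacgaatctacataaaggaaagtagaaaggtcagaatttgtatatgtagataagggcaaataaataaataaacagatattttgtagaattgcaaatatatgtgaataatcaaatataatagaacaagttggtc
These windows shared 80.5% of 220 aligned bases. The W-box, bound by WRKY factors, was searched with its last base as C (TTGACC, in 12.2% of windows) and as T (TTGACT, in 19.1%). The G-box was searched as CACGTG (6.49%), and it contains the ABRE core of abscisic acid responses, searched as ACGTG. The DRE core of cold and drought responses was searched as CCGAC (12%) and the GCC box of ethylene responses as GCCGCC (1.87%). The as-1 core was searched as TGACG and the TATA box as TATAAA. AZI1 held 1 ABRE core, found in 22.9% of 27443 such windows, and 3 TATAAA matches, found in at least 1 copy in 47.3%. EARLI1 held no match to these letters. AT4G12500 held 1 W-box with T and 2 TATAAA, and 1 ABRE core that overlaps 1 as-1 core (18.6%), while AT4G12490 held 2 TATAAA. The deposited gene lengths of 799 bases for AZI1, 833 for EARLI1 and 778 for AT4G12500 are shorter than RefSeq's 865, 930 and 966. The authors' annotation may therefore start these genes elsewhere. AT4G12490 has 786 bases in both.

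The libraries held 58 M to 68.56 M gene reads. HIN1 itself was at 315.5 to 390 CPM (reads relative to the library total after TMM scaling) in HIN1 stress and 249.6 to 297.3 CPM in HIN1 control, against 22.82 to 24.46 CPM in WT stress and 21.58 to 24.53 CPM in WT control, so each library carried the level its label gives. WT control library 1 stood apart on the third principal component (8.53% of variance), and the 14 early defence and touch genes listed here summed to 1570 CPM in it, against 129.1 to 516.9 CPM in the other 11 libraries. The 3 libraries of a group came from independent experiments, per the design text, and p-values measure the spread between them.

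AZI1 had the highest mean RPKM of the 4 genes at control water potential, 19.5 in HIN1 and 20.3 in WT, and was low under stress in both genotypes. It had 1.585, 3.107 and 2.894 CPM in HIN1 stress, against 9.454, 19.98 and 20.72 CPM in HIN1 control. In WT it had 3.649, 3.82 and 4.386 CPM in stress, against 15.67, 25.55 and 13.23 CPM in control. Every stress library lay below every control library of its genotype, and the 3 HIN1 stress libraries lay below the 3 WT stress libraries. Libraries separated in this way with stress for 45.4% of all genes in HIN1 (22% lower) and 43.1% in WT (21.5% lower), and between genotypes at stress for 16.8% (6.67% lower, 10.1% higher). The group means were 2.53 ± 0.824 CPM in HIN1 stress, 16.7 ± 6.3 CPM in HIN1 control, 3.95 ± 0.386 CPM in WT stress and 18.2 ± 6.52 CPM in WT control (SD, n = 3 each). The log2 fold change with stress was -2.72 ± 0.348 (SE) in HIN1, a 6.6-fold lower level, and -2.20 ± 0.336 in WT, a 4.59-fold lower level. Between genotypes it was -0.64 ± 0.347 at stress and -0.12 ± 0.314 at control. The control groups overlapped, and without WT control library 2, the highest of all 12, the control value was 0.21. From high to low the order was WT control, HIN1 control, WT stress and HIN1 stress, of which the first pair did not separate.

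EARLI1 was higher under stress in WT and lower under stress in the HIN1 line. It had 1.255, 1.285 and 1.631 CPM in HIN1 stress, from 80, 86 and 102 reads, against 2.53, 4.713 and 5.003 CPM in HIN1 control. In WT it had 12.05, 8.255 and 9.666 CPM in stress, from 849, 510 and 562 reads, against 4.088, 7.077 and 7.527 CPM in control. The stress libraries of each genotype did not overlap its control libraries, in opposite directions in the 2 genotypes. Among all genes, 22% separated as lower with stress in HIN1 (23.4% as higher), and 21.5% as higher in WT. The lowest WT stress library was above the highest of the other 9 libraries, and the highest HIN1 stress library was below the lowest of the other 9. The share of all genes with opposite separations, or with 3 libraries apart from the other 9, was not counted. Opposite separations with stress were also seen, in the reverse directions, for FMO1 and DIR1-like of the systemic resistance list below. The means were 1.39 ± 0.209 CPM in HIN1 stress, 4.08 ± 1.35 CPM in HIN1 control, 9.99 ± 1.92 CPM in WT stress and 6.23 ± 1.87 CPM in WT control (SD, n = 3 each). HIN1 stress was 7.19-fold lower than WT stress, a log2 fold change of -2.85 ± 0.297 (SE). With stress the log2 fold change was -1.55 ± 0.293 in HIN1 and 0.68 ± 0.269 in WT, and the response of HIN1 less that of WT was -2.24 ± 0.398.

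Part of the smaller WT response rests on 1 library. WT control library 1 was the lowest of its group for EARLI1, and without it the WT stress value was 0.45 and the difference between the responses -2.01. That library is also the one with the high sum of early defence and touch genes; the part of those genes in the result was not tested. At control the genotypes overlapped for all 4 genes (21.2% of all genes separated, 10.2% higher and 11% lower), and EARLI1 had a mean of 4.08 CPM in HIN1 and 6.23 CPM in WT, with a log2 fold change of -0.61 ± 0.274 for HIN1 over WT.

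In the authors' deposited table, EARLI1 had a log2 fold change of -1.64 ± 0.11 in HIN1 stress over WT stress and 0.62 ± 0.21 in WT stress over WT control. AZI1 had -1.99 ± 0.205 in WT stress over WT control in the authors' deposited table. The deposited value nearer 0 for EARLI1 between the genotypes has the same sign as the value above. Sizes and SEs of the deposited values are not taken as like those of the fit here. For AT4G12490 in HIN1 stress over WT stress the deposited value was -0.06 ± 0.0493, against -1.26 ± 0.81 in the fit.

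**Figure D1:**
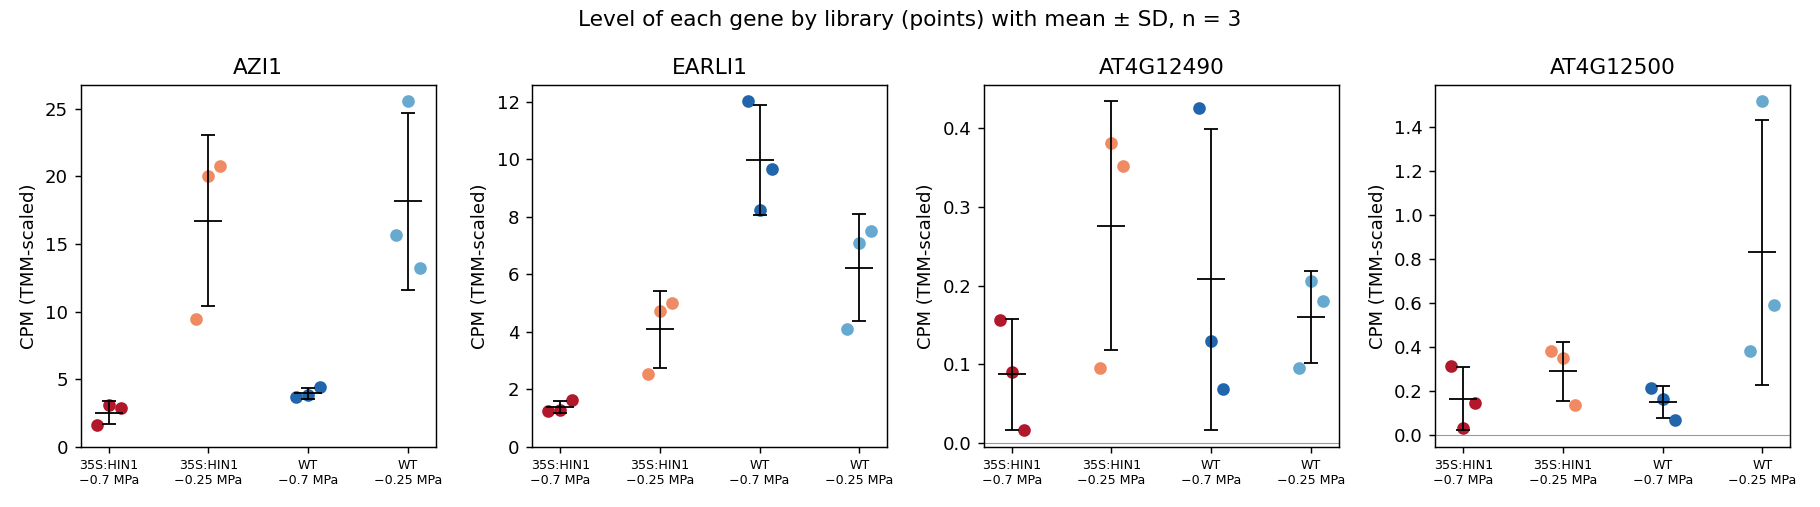
CPM (vertical axes, from 0, a scale for each gene) of AZI1, EARLI1, AT4G12490 and AT4G12500 in each library (points), with the mean and SD of 3 libraries (black), for 35S:HIN1 stress and control and WT stress and control from left to right. EARLI1 was at 1.255 to 1.631 CPM in HIN1 stress and 8.255 to 12.05 CPM in WT stress, and AZI1 was at or below 4.386 CPM in all 6 stress libraries.

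The balance between AZI1 and EARLI1 was compared per length, as the ratio of their deposited RPKM values within each library, a measure in which library size cancels. EARLI1 over AZI1 was 0.76, 0.397 and 0.541 in HIN1 stress and 0.257, 0.226 and 0.232 in HIN1 control. It was 3.17, 2.07 and 2.11 in WT stress and 0.25, 0.266 and 0.546 in WT control. EARLI1 exceeded AZI1 in the 3 WT stress libraries and in none of the other 9. The mean ratio was 0.566 ± 0.183 in HIN1 stress, 0.238 ± 0.0164 in HIN1 control, 2.45 ± 0.624 in WT stress and 0.354 ± 0.166 in WT control (SD, n = 3 each).

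The summed RPKM of AZI1 and EARLI1 was lowest in HIN1 stress. It was 4.54 ± 1.08 RPKM in HIN1 stress and 24.1 ± 8.69 RPKM in HIN1 control, and 15.9 ± 2.2 RPKM in WT stress and 27.1 ± 7.72 RPKM in WT control (SD, n = 3 each). In whole seedlings, fewer cells of a type and less RNA per cell cannot be told apart.

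**Figure D2:**
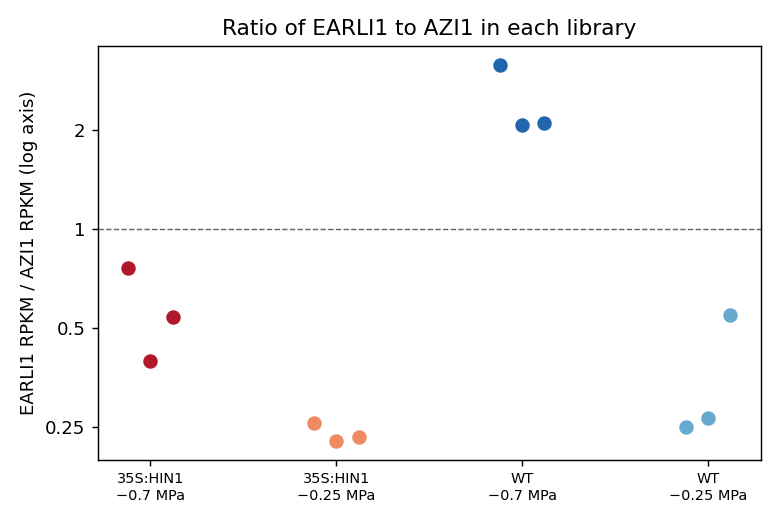
RPKM of EARLI1 divided by RPKM of AZI1 (log axis) in each library (points), by group, with a dashed line at equal levels. The WT stress libraries lay at 2.07 to 3.17, and the other 9 libraries at 0.226 to 0.76.

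AT4G12490 and AT4G12500, the other members of the block, were near the limit of detection. Together they made up 1.02% to 14.7% of the summed RPKM of the 4 genes. AT4G12490 had 10, 6 and 1 reads in HIN1 stress and 6, 24 and 21 in HIN1 control, and 30, 8 and 4 in WT stress and 6, 12 and 11 in WT control. The libraries overlapped in each pairwise comparison. A count of 1 read has a 95% exact Poisson interval of 0.0253 to 5.57 reads and a count of 30 one of 20.2 to 42.8 reads, which cover counting error only. The log2 fold change with stress was -1.63 ± 0.793 (SE) in HIN1 and 0.41 ± 0.751 in WT, and the WT value was -0.67 without WT stress library 1.

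AT4G12500 had 20, 2 and 9 reads in HIN1 stress and 24, 22 and 8 in HIN1 control, and 15, 10 and 4 in WT stress and 24, 88 and 36 in WT control. The WT stress libraries lay below the WT control libraries, while those of HIN1 overlapped. In WT, 43.1% of all genes separated with stress, and 21.5% as lower. The log2 fold change with stress was -0.83 ± 0.749 (SE) in HIN1 and -2.44 ± 0.71 in WT, or -1.68 in WT without WT control library 2. Between genotypes it was 0.10 ± 0.806 at stress, -0.80 without HIN1 stress library 1, and -1.51 ± 0.659 at control, -0.74 without WT control library 2.

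**Figure D3:**
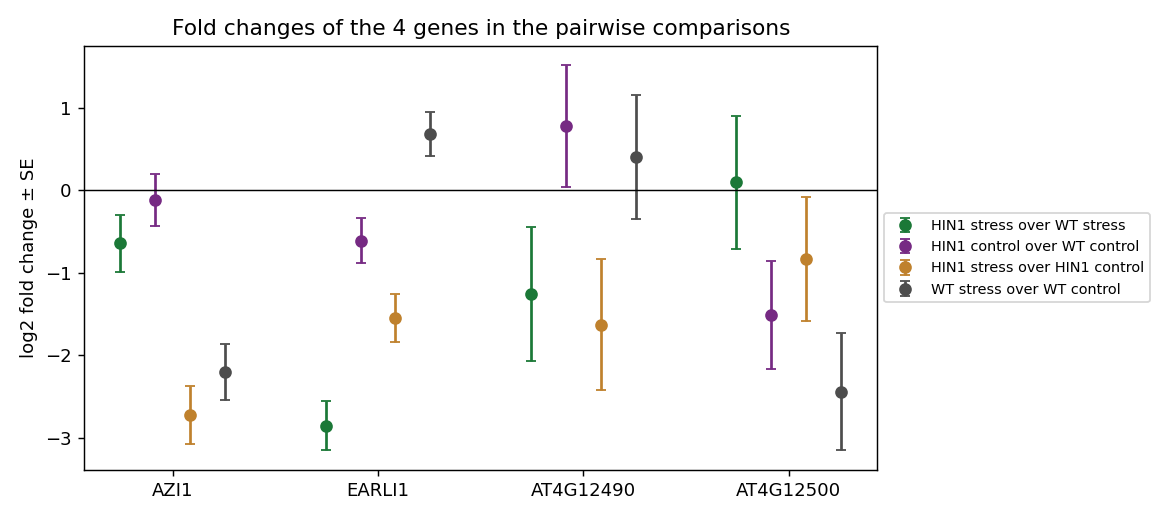
Log2 fold change and its SE (vertical axis) of the 4 genes in the 4 pairwise comparisons. EARLI1 lay at -2.85 in HIN1 stress over WT stress and at 0.68 in WT stress over WT control, and AZI1 lay at -2.72 and -2.20 with stress in HIN1 and WT.

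Set against all genes, the counts are as follows, and nothing is read from them because these contrasts were known when the genes were picked. With stress in HIN1, 2 of 4 passed an adjusted p of 0.05 in edgeR, both lower, where 27.1% of all genes passed and 12.5% passed as lower. With stress in WT, 2 of 4 passed, both lower, against 31.6% and 16.7% of all genes. Here EARLI1 did not pass, and DESeq2 called 3 of 4. In HIN1 stress over WT stress, 1 of 4 passed, EARLI1, against 3.42% of all genes and 0.196% as lower. In HIN1 control over WT control, 0 of 4 passed in edgeR (2.76% of all genes, 2.19% higher and 0.576% lower). At control DESeq2 likewise called 0, and 2 of the 4 were under 0.05 before adjustment. In the interaction, 0 of 4 passed in edgeR (0.157% of all genes, 0.153% higher and 0.00436% lower). DESeq2 called 1 there, and 1 of the 4 was under 0.05 before adjustment. The median log2 fold change of the 4 genes was -1.59 in HIN1 and -0.89 in WT with stress, and -0.95 at stress and -0.36 at control between genotypes, beside 0.01, 0, -0.01 and -0.02 over all genes tested.

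The loci that flank the 4 genes were not used to pick them and were tested in the same fit, which took 8 of the 9 between AT4G12450 and AT4G12560 that the tables hold. With stress, 2 rose and 2 fell in each genotype, against 14.7% and 12.5% of all genes in HIN1 and 14.9% and 16.7% in WT. AIR1 (AT4G12550), named for its induction by auxin in root cultures, and its neighbour AT4G12545, of the same lipid transfer superfamily, fell in both. AIR1 had 8.74 ± 4.48 CPM in HIN1 stress and 35.7 ± 13.5 CPM in HIN1 control, with a log2 fold change of -2.03 ± 0.481 (SE) and an adjusted p of 0.00913. In WT it had 6.37 ± 3.88 CPM in stress and 34 ± 2.92 CPM in control (SD, n = 3), with -2.41 ± 0.492 and an adjusted p of 0.00337. AT4G12545 changed by -2.02 ± 0.428 in HIN1 (adjusted p = 0.00471) and by -2.34 ± 0.438 in WT (adjusted p = 0.00197).

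AIR1 and AT4G12545 are 95.7% identical over 327 coding bases, but the authors list no shared reads for them. RefSeq has loci on the opposite strand that overlap each. ORP2B, an oxysterol-binding protein gene on the other flank, rose by 0.37 ± 0.0586 in HIN1 (adjusted p = 0.00079) and by 0.31 ± 0.0586 in WT (adjusted p = 0.00203). AT4G12540, of no named function, rose in WT (0.53 ± 0.151, adjusted p = 0.0201). It lost its call without WT stress library 1, WT control library 1 or WT control library 3 (highest adjusted p = 0.0837). CPR1, an F-box protein gene that restrains defence, rose in HIN1 by 0.23 ± 0.0742 (adjusted p = 0.0411), a call kept only without HIN1 control library 2 among the 6 that leave out a library (highest adjusted p = 0.128), and lost with no filter on low counts (adjusted p = 0.0553).

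The pair next to the 4 genes, AT4G12510 and AT4G12520, did not pass in any of the 5 contrasts. They are 99.5% identical in coding sequence with a common run of 441 bases, and 31.15% to 40.01% of their reads map to several sites, so the split of reads between them is uncertain. AT4G12520 was the higher of the pair per length, at 82.1 ± 26.9 RPKM in HIN1 stress and 130 ± 15.8 RPKM in HIN1 control, and 69.3 ± 19.9 RPKM in WT stress and 80.7 ± 40.9 RPKM in WT control (SD, n = 3 each). AT4G12530 did not pass the filter, with 1 to 11 reads a library.

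Between the genotypes, no flanking locus passed in edgeR. At stress and at control alike the count was 0 of 8, 0 at an unadjusted p under 0.05 and 0 in DESeq2. Without WT control library 3, 2 of the 8 passed at control. For the interaction the count was 0 in edgeR and 0 in DESeq2, with 1 under 0.05 before adjustment. For AIR1 the interval around the miss was wide, at 0.45 ± 0.487 at stress.

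**Figure D4:**
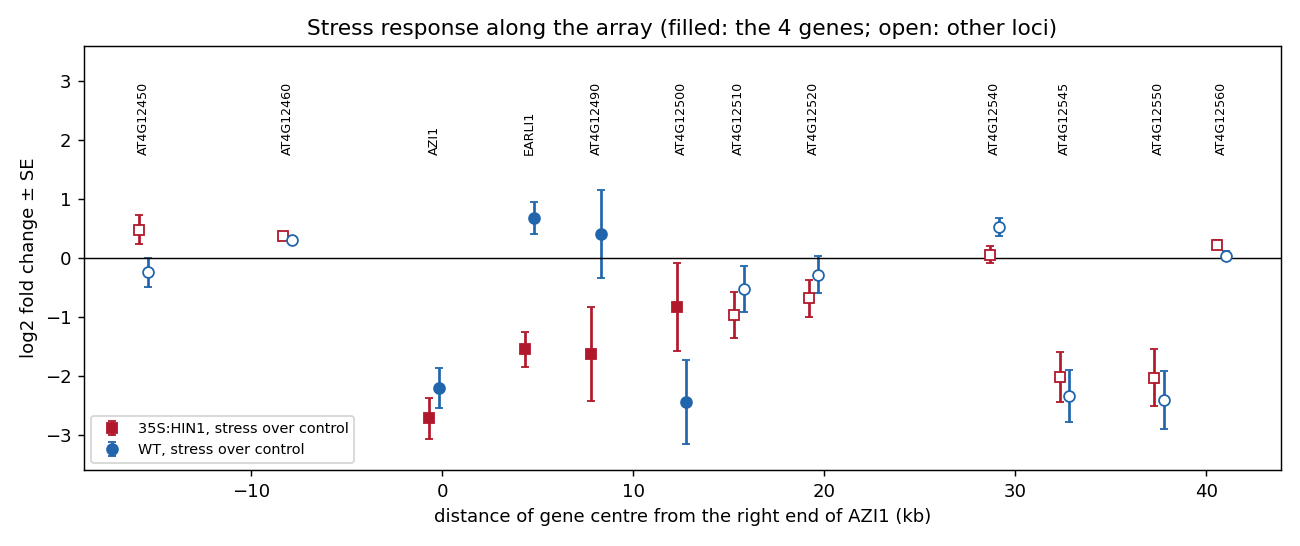
Log2 fold change with stress and its SE (vertical axis) for each tested locus from AT4G12450 to AT4G12560 against its distance in kilobases from the right end of AZI1. Squares are 35S:HIN1 and circles WT, filled for the 4 genes and open for the flanking loci. EARLI1 lay at -1.55 in HIN1 and 0.68 in WT, while AIR1 lay at -2.03 and -2.41.

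Outside the array, some of the other genes of the hybrid proline-rich and lipid transfer type fell with stress. Of 17 tested from a list of 18, 9 fell in HIN1 and 8 in WT, where 12.5% and 16.7% of all genes fell, and the count in HIN1 was 5 without HIN1 control library 2. This list and those below were chosen with earlier results of these data known, so their counts and p-values are a description. No member of the list rose in either genotype in edgeR or DESeq2, though 12 and 9 had an unadjusted p under 0.05 in either direction. The median log2 fold change was -0.92 in HIN1 and -0.72 in WT, beside 0.01 and 0 for all genes. AT2G45180 had 214 ± 7.05 CPM in HIN1 stress and 1060 ± 65.8 CPM in HIN1 control (-2.31 ± 0.091, adjusted p = 6.78e-08), and 203 ± 17.9 CPM in WT stress and 1220 ± 117 CPM in WT control (SD, n = 3; -2.59 ± 0.092, adjusted p = 3.23e-08). AT4G22520, AT1G62500 and AT2G10940 also fell in both genotypes, by 1.46, 0.92 and 0.82 in HIN1 and by 1.28, 1.28 and 0.84 in WT on the log2 scale. Their adjusted p-values ran from 6.92e-06 (AT4G22520) to 0.00252 (AT2G10940) in HIN1 and from 1.12e-05 (AT4G22520) to 0.00183 (AT2G10940) in WT.

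Between the genotypes, 0 of these 17 genes passed in edgeR at stress (3.42% of all genes), with 2 at an unadjusted p under 0.05 and 1 in DESeq2. At control 0 passed (2.76% of all genes), with 4 at an unadjusted p under 0.05 and 0 in DESeq2, but 2 were called higher and 2 lower without WT control library 3. For the interaction 0 passed, with 1 at an unadjusted p under 0.05 and 0 in DESeq2.

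Genes that act with AZI1 in systemic resistance and lipid signalling were taken as a list of 16, all tested. Earlier results of these data were known when it was drawn up, so its counts and p-values are no independent support. With stress, 4 fell in HIN1, where 12.5% of all genes fell, and 8 fell and 1 rose in WT, where 16.7% fell and 14.9% rose. DIR1, a lipid transfer protein that works with AZI1 in long-distance signalling, had 21.6 ± 1.81 CPM in HIN1 stress and 41.8 ± 11.2 CPM in HIN1 control (-0.95 ± 0.228, adjusted p = 0.0095). In WT, DIR1 had 20.7 ± 2.03 CPM in stress and 56.7 ± 17.6 CPM in control (SD, n = 3; -1.46 ± 0.23, adjusted p = 0.000661). ALD1, an aminotransferase of pipecolic acid synthesis, fell with stress by 2.1 ± 0.276 in HIN1 (adjusted p = 0.000238) and by 3.76 ± 0.519 in WT (adjusted p = 0.000264), or by 4.41 in WT without WT stress library 3. It had only 7 reads over the 3 WT stress libraries and 95 over the 3 WT control libraries, so the size of its WT fold is uncertain. GLY1, a glycerol phosphate dehydrogenase gene, fell by 0.24 in HIN1 and 0.35 in WT (adjusted p = 0.0437 and 0.00685), and its HIN1 call was lost without any of the 6 libraries. LOX5, a lipoxygenase gene, fell in HIN1 (-0.37 ± 0.095, adjusted p = 0.0129), and LOX1, another, was the one that rose in WT (0.51 ± 0.0893, adjusted p = 0.00135).

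The number that fell in WT was 4 without WT stress library 1 and 5 without WT control library 1. The list's median was -0.14 in HIN1 and -0.25 in WT.

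Between genotypes, 3 of 16 genes of this list rose in HIN1 at stress (3.23% of all genes) and 6 of 16 at control (2.19%), and 0 fell in edgeR at either. At control DESeq2 called 6 higher and 1 lower, and edgeR 7 higher and 2 lower without WT control library 3. They included FMO1, which makes N-hydroxypipecolic acid, at 24.9 ± 3.11 CPM in HIN1 stress and 0.43 ± 0.298 CPM in WT stress (5.88 ± 0.382, adjusted p = 4.28e-06), and at 16.7 ± 5.13 CPM in HIN1 control and 1.23 ± 0.396 CPM in WT control (SD, n = 3; 3.76 ± 0.332, adjusted p = 9.54e-05). ALD1 was higher by 5.80 ± 0.455 at stress (adjusted p = 1.69e-05) and 4.15 ± 0.316 at control (adjusted p = 3.07e-05), and UGT76B1, a glucosyltransferase gene, by 1.19 ± 0.169 (adjusted p = 0.00134) and 1.11 ± 0.169 (adjusted p = 0.00392). At stress ALD1 had 2.17 ± 0.0884 CPM in HIN1 and 0.0378 ± 0.0275 CPM in WT (SD, n = 3). The WT level is near 0, so the size of that fold is uncertain. Without WT stress library 3, the highest values at stress were 6.59 for FMO1 and 6.46 for ALD1. LOX1 was higher at control by 0.62 ± 0.0894 (adjusted p = 0.00269). AZI1 and EARLI1 had values of -0.64 and -2.85 at stress, the opposite sign to FMO1 and ALD1. The medians of the list were 0.19 at stress and 0.10 at control, DESeq2 called 5 higher at stress, and the count at control was 4 without any 1 of HIN1 control library 1, HIN1 control library 2 or WT control library 1. For the interaction 0 of 16 passed in edgeR and 1 in DESeq2, with 6 under 0.05 before adjustment.

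Markers of organs and of handling were set beside EARLI1 and AZI1. For HIN1 stress against WT stress, where EARLI1 differed most, the summed level of 11 root markers was 69.77 to 80.84 CPM in HIN1 and 68.26 to 79.54 CPM in WT, that of 7 photosynthetic leaf markers 29330 to 30980 and 28110 to 30220 CPM, and that of 5 guard cell markers 30.48 to 40.28 and 34.86 to 39.45 CPM. The groups overlapped for all 3 sums and no marker gene was at 0. Each sum gives most weight to its most abundant genes. The 14 early defence and touch genes summed to 129.1 to 384.6 CPM in HIN1 stress and 137.4 to 163.9 CPM in WT stress. Of these FRK1, a receptor-like kinase gene, passed as higher in HIN1 (1.47 ± 0.352, adjusted p = 0.0422), a call lost without 5 of the 6 libraries, with the replicate block and on these groups alone.

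With stress in WT the leaf, guard cell and early defence sums were lower without overlap, while the root sums overlapped. Root markers summed to 68.26 to 79.54 CPM in WT stress and to 41.06, 41.12 and 83.84 CPM in WT control, leaf markers to 28110 to 30220 and 31760 to 39410 CPM, and guard cell markers to 34.86 to 39.45 and 56.01 to 64.4 CPM. In edgeR 2 of 11 root markers rose and 1 fell (14.9% and 16.7% of all genes), or 7 rose and 0 fell without WT control library 3. Of 7 leaf markers 4 fell and 0 rose, and of 5 guard cell markers 4 fell and 0 rose. Early defence and touch genes summed to 137.4 to 163.9 CPM in WT stress and 269.6 to 1570 CPM in WT control, with 9 of 14 lower and 1 higher (16.7% and 14.9% of all genes), or 3 lower without WT control library 1 or WT stress library 1. TCH3, a touch-induced calmodulin-like gene, was at -2.34 ± 0.513 (adjusted p = 0.00501) or -1.52 without WT control library 1. PR2, a glucanase gene of pathogen response, was the higher one at 4.03 ± 0.849 (adjusted p = 0.00407), or 3.29 without WT stress library 3. ZAT10, a zinc finger gene, was at -3.33 ± 0.83 (adjusted p = 0.0102), or -2.32 without WT control library 1, and TCH4, a wall enzyme gene, at -2.94 ± 0.739 (adjusted p = 0.0107), or -1.59 with an adjusted p of 0.05 without WT control library 1.

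In HIN1, root markers summed to 69.77 to 80.84 CPM in stress and 82.43 to 93.58 CPM in control, leaf markers to 29330 to 30980 and 27440 to 33170 CPM, guard cell markers to 30.48 to 40.28 and 46.54 to 48.03 CPM, and early defence genes to 129.1 to 384.6 and 229.1 to 450.1 CPM. Of 5 guard cell markers, 3 fell with stress in HIN1 in edgeR (12.5% of all genes) and 1 rose (14.7%). The one that rose was EPF1 (0.71 ± 0.176, adjusted p = 0.0108). Of 11 root markers 1 rose and 1 fell, and of 7 leaf markers 1 fell. In HIN1, 0 of the 14 early defence genes passed with stress in edgeR (27.1% of all genes) and 0 in DESeq2, with 1 under 0.05 before adjustment, and 1 was called lower without HIN1 stress library 3. At control, markers summed to 82.43 to 93.58 CPM in HIN1 and 41.06 to 83.84 CPM in WT for root, 27440 to 33170 and 31760 to 39410 CPM for leaf, and 46.54 to 48.03 and 56.01 to 64.4 CPM for guard cells. The 83.84 CPM was WT control library 3. The guard cell sums did not overlap at control. At control edgeR called 0 of 11 root and 0 of 7 leaf markers (2.76% of all genes). Of 5 guard cell markers edgeR called 1 as lower at control (0.576% of all genes), and DESeq2 likewise 1. In edgeR it was FAMA (-0.52 ± 0.0789, adjusted p = 0.00375). DESeq2 called 4 root markers higher and 4 leaf markers lower at control. Without WT control library 3, edgeR called 7 root markers higher and 2 leaf markers lower at control. For the interaction, 0 root markers passed in edgeR, or 6 as lower without that library. The part of these shifts in the results for AZI1 and EARLI1 was not tested.

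The genes most like the 4 in pattern were sought over the 12 libraries as the smallest root mean square difference between centred log2 CPM profiles, among 16744 genes of at least 5 CPM. The 8 nearest to the mean profile of the 4 lay at 0.437 to 0.476 on the log2 scale. The 4 genes themselves lay at 0.673 to 0.793 from their own mean. Nothing is read from that comparison, because the 8 were the closest of 16744 searched and AT4G12490 and AT4G12500 had few reads. The 8 were AT3G13760, AT4G22520, AT1G28660, CIL, YSL1, AT1G70880, AT1G65845 and AT1G07560. AT4G22520 is of the same lipid transfer superfamily. Because the 4 genes differ from each other, AZI1 and EARLI1 were also searched alone, a choice made after their values were seen.

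Nearest to AZI1 was AT1G27020 at 0.333, followed by PYL5 at 0.37, an abscisic acid receptor gene, FLA13 at 0.395, an arabinogalactan protein gene, and PYL4 at 0.426, another receptor gene. PYL5 had 8.14 ± 1.67 CPM in HIN1 stress and 32.7 ± 3.5 CPM in HIN1 control, and 8.93 ± 1.15 CPM in WT stress and 47.1 ± 6.38 CPM in WT control (SD, n = 3 each). Nearest to EARLI1 were THAS1 at 0.677, CYP705A5 at 0.714 and CYP708A2 at 0.787, 3 genes of thalianol synthesis in roots. THAS1, thalianol synthase, had 61.2 ± 10.2 CPM in HIN1 stress and 75 ± 4.24 CPM in HIN1 control, and 147 ± 7.1 CPM in WT stress and 111 ± 37.1 CPM in WT control (SD, n = 3 each). Even these lay farther from EARLI1 than AT1G27020 did from AZI1, and the fold between the genotypes at stress was 2.4 for THAS1 and 7.19 for EARLI1.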

How the data were processed

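CASAVA, bcl2fastq 1.8.4, Trimmomatic 0.35, Bowtie2, DESeq2 and build TAIR10 are named in the submitters' processing notes, per the labels; the sources used here give neither the counting tool nor its use of strand. The reads per gene that the authors deposited are expected counts, fractional in 4.09% to 4.56% of genes, per the file headers and values. The authors also deposited RPKM and the fraction of reads that map to several sites, per the file headers. Their comparison tables give a log2 fold change, its standard error (held here as a score) and p-values, per the file headers; the authors' p-values were not used for any result.

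Counts were rounded and fitted in R 4.3.3 with edgeR 4.0.16: filterByExpr (minimum count 10), TMM scaling, and 1 quasi-likelihood fit of 12 libraries with 8 residual degrees of freedom. Tests were two-sided with Benjamini-Hochberg adjustment over 22924 genes, called below 0.05. An SE is the absolute log2 fold change over the square root of F. CPM uses the unrounded reads. Centred profiles used log2 CPM with a prior count of 2. The script was tested on simulated data. DESeq2 1.42.0 was an alternative.

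Names and sequences come from RefSeq's TAIR10.1; the files hold no coordinates, and 31.6% of 32827 matched loci had RefSeq's exon length. Named are the 4 genes, the flanking loci, up to 4 called genes a list by adjusted p, the 8 nearest profiles and HIN1. AT3G22120 was left out of the family list because its annotation names no such domain. Members and lists were chosen with earlier results of these data known.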

Additional observations from a re-analysis of the deposited data

Results flagged for a closer look

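EARLI1 had opposite directions in the genotypes: all 3 HIN1 stress libraries lay below the HIN1 control libraries (1.255 to 1.631 and 2.53 to 5.003 CPM), and all 3 WT stress libraries lay above the WT control libraries (8.255 to 12.05 and 4.088 to 7.527 CPM). The response of HIN1 less that of WT was -2.24 on the log2 scale, and -2.49 to -2.01 with a library left out. This difference was not tested apart from the choice of the gene. The share of all genes with such opposite separations was not counted. FMO1 and DIR1-like (AT5G48490), of the systemic resistance list, also separated in opposite directions, in reverse of EARLI1. Their stress libraries lay lower in WT (log2 fold changes of -1.55 and -0.47) and higher in HIN1 (0.58 and 0.27). The HIN1 values did not pass in edgeR (adjusted p = 0.148 and 0.196). In the interaction over all genes, 0 of the 4 genes passed in edgeR and 1 in DESeq2, with 1 under 0.05 before adjustment.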

How the results depend on the processing

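The fold changes of the 4 genes moved by less than the spread between replicates (1 SD) in all 260 recomputed values: 144 with a library left out and 116 under RLE size factors, no filter on low counts, DESeq2, a replicate block, the compared groups alone or reads at one site only. Leaving out 1 of 3 libraries can hardly shift a group mean by 1 SD, so the 144 values say little about stability. Within that spread the sign changed for AT4G12490 with stress in WT (-0.67 without WT stress library 1), AT4G12500 between genotypes at stress (-0.8 without HIN1 stress library 1, -0.22 without WT stress library 3) and AZI1 between genotypes at control (0.21 without WT control library 2, 0.17 without HIN1 control library 1). Counts of called genes moved more. For HIN1 control over WT control, 633 genes became 1542 in DESeq2, of which 951 were higher against 501 of the 633, and 301 on the compared groups alone. For the interaction, 36 became 214 in DESeq2. With a library left out the counts ran from 340 (without WT control library 1) to 2302 (without WT control library 3) for HIN1 control over WT control and from 13 (without HIN1 control library 3 or WT stress library 1) to 238 (without WT control library 3) for the interaction. The cause was not tested.

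Replicate numbers were not taken as pairs: same-numbered libraries had correlations of their deviations from -0.11 to 0.195, with 5 of 18 over 0.1, and 5 of 12 libraries correlated best with their own number. The share of chloroplast reads, however, was highest in library 3 (0.408% to 0.75%) and lowest in library 2 (0.141% to 0.187%) of every group; whether libraries of a number share a batch is not stated in the labels. With the number as a block, 7330 genes were called with stress in WT, 6322 with stress in HIN1, 540 at control, 725 at stress and 27 in the interaction. By Pearson r, 1 of the 8 nearest genes was shared for the mean profile, 1 for AZI1 and 5 for EARLI1. Reads of AT4G12490 and AT4G12500, 1 to 88 a library, limit their precision.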

Other observations

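AT4G12530, a lipid transfer type gene of the same array, stayed below the filter. It had 11, 4 and 8 reads in HIN1 stress and 6, 4 and 4 in HIN1 control, and 8, 8 and 8 in WT stress and 2, 1 and 2 in WT control. The WT groups did not overlap, and no test was made. Among the genes that passed the filter, 43.1% separated with stress in WT, and 21.5% as higher.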
